A study of Mus musculus with 35 samples.

Results

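The 10 genes described here mark the identity of cardiac fibroblasts (CFs), and they are Pdgfra, Pdgfrb, Thy1, Ddr2, Dpt, Pi16, Cd34, Ly6a, Gsn and Meox1. They were chosen by symbol as known fibroblast markers, and all 10 were found among the 55487 genes of the tables. The study asked what IAMP, a micropeptide encoded by 4930523C07Rik, does in CFs and hearts, and measured mRNA by RNA-Seq in 35 libraries. Of these, 27 were from CFs of adult mice and 8 were from hearts.

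The CFs were obtained by enzymatic digestion of the heart and kept in serum-containing medium as the cells that adhered to collagen-coated plates, so they are a culture enriched for fibroblasts and not a sorted population. They were transfected with a scrambled siRNA (Scrambled, the control) or with 1 of 2 siRNAs against IAMP, IAMP-siR-1 (siR-1) and IAMP-siR-2 (siR-2). Each siRNA was read in 3 libraries without a stimulus (untreated), in 3 with IL-17, a proinflammatory cytokine, and in 3 with TGF-β, the main profibrotic cytokine. IL-17 followed 24 h after the siRNA and acted for 24 h, per the labels. A duration of TGF-β is not given in the sources used here. The labels name the strain C57BL/6 for the hearts. They do not say whether replicate libraries came from separate mice or cultures, so p values measure the spread between these libraries, which may be technical. The hearts were from 4 heterozygous mice (HET), the controls, which carry the mutation on one allele, and from 4 IAMP-KO mice with a frameshift in the IAMP reading frame. The mice were 8 weeks old.

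Fibroblasts have no marker of their own that all of them carry and no other cell does, so sets of genes are used. Pdgfra and Pdgfrb encode the receptor tyrosine kinases for platelet-derived growth factor (PDGF), and in the heart PDGFRα marks resident fibroblasts while PDGFRβ is also carried by pericytes. Ddr2 encodes a receptor tyrosine kinase that binds fibrillar collagen. Thy1 (CD90), Cd34 and Ly6a (Sca-1) encode surface proteins of mesenchymal cells, of which Cd34 and Ly6a are also made by endothelial cells. Dpt encodes dermatopontin, an extracellular matrix protein, and Dpt with Pi16, a peptidase inhibitor, marks adventitial fibroblasts that are held to be a reserve population. Gsn encodes gelsolin, which severs actin filaments and is also made by muscle cells. Meox1 encodes a homeobox transcription factor known from activated CFs.

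The sequence around a RefSeq start site is shown for the 4 of these genes with an entry in the promoter table that differed at least 2-fold between the TGF-β and the untreated tables in Scrambled cells, as described further on. Pdgfra, Ddr2 and Cd34 were lower and Pi16 was higher in the TGF-β table. Each sequence runs from 250 bases before to 50 bases after the RefSeq start site (GRCm38.p6, RefSeq) and is given 5′ to 3′ on the strand of the gene. For Cd34 and Pdgfra the start site lies near the 5′ end of the gene annotated below, while for Ddr2 and Pi16 it lies inside that gene, so these windows are at internal start sites and not at the 5′ end. On both strands the AP-1 motif was searched as TGANTCA, the SMAD motif as CAGACA, the TEAD motif as GGAATG, the homeobox motif as TAATTA, the TATA box as TATAAA, the GC box as GGGCGG and the E-box as CAGCTG. Capitals mark the matches.
Cd34 start-site window, chr1:194938571-194938870, plus strand: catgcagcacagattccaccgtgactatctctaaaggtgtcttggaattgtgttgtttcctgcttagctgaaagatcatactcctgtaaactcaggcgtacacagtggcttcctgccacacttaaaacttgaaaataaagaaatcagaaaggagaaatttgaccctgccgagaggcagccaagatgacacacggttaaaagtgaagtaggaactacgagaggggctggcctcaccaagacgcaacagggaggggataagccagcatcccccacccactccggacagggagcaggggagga
Pdgfra start-site window, chr5:75152001-75152300, plus strand: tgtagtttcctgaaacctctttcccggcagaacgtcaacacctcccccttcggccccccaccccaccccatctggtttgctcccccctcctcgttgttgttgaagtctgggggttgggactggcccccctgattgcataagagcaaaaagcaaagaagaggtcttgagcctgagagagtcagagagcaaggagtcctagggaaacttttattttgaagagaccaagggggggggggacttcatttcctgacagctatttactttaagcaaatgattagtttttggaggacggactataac
Ddr2 start-site window, chr1:170088895-170089194, minus strand: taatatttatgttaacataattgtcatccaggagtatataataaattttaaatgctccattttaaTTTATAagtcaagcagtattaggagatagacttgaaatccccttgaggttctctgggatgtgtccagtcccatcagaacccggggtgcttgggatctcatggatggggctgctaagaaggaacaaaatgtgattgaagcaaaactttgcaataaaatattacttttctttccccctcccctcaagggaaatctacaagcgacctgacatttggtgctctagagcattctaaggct
Pi16 start-site window, chr17:29318632-29318931, plus strand: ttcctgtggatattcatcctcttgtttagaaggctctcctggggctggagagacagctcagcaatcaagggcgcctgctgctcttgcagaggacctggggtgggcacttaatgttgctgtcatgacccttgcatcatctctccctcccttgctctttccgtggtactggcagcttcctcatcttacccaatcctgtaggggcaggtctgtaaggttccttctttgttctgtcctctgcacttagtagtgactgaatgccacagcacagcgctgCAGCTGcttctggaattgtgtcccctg

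The table of promoters held 8 sequences for 6 of the 10 genes, Cd34, Ddr2, Dpt, Gsn (3 start sites), Pdgfra and Pi16. None of the 8 held the AP-1, SMAD, TEAD or homeobox letters, which were in 7.81%, 21.0%, 14.7% and 5.29% of all 32851 promoters. The Cd34 and Pdgfra windows held none of the 7 motifs, the Ddr2 window held 1 TATA match and the Pi16 window held 1 E-box. Dpt held 2 E-boxes and 1 TATA match, which abuts the second of them. The 3 Gsn windows held 3, 1 and 2 GC boxes, and E-boxes stood in the first and second of them. Over all promoters, the TATA letters stood in 13.6%, the GC box in 35.7% and the E-box in 16.3%. These matches describe letters only.

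In the GRCm38 annotation (GENCODE vM21), Pdgfra (ENSMUSG00000029231) on chromosome 5 from 75152292 to 75198215 on the plus strand and Pdgfrb (ENSMUSG00000024620) on chromosome 18 from 61045150 to 61085061 on the plus strand are the receptor genes for PDGF. The annotation places Ddr2 (ENSMUSG00000026674) on chromosome 1 from 169972307 to 170110762 on the minus strand, Cd34 (ENSMUSG00000016494) on chromosome 1 from 194938819 to 194961279 on the plus strand and Dpt (ENSMUSG00000026574) on chromosome 1 from 164796644 to 164824266 on the plus strand. It places Thy1 (ENSMUSG00000032011) on chromosome 9 from 44043384 to 44048579 on the plus strand, Ly6a (ENSMUSG00000075602) on chromosome 15 from 74994877 to 74998031 on the minus strand and Pi16 (ENSMUSG00000024011) on chromosome 17 from 29317680 to 29330593 on the plus strand. The last are Gsn (ENSMUSG00000026879) on chromosome 2 from 35256380 to 35307892 on the plus strand and Meox1 (ENSMUSG00000001493) on chromosome 11 from 101877510 to 101894374 on the minus strand. For 7 of the genes an annotated gene overlaps, in 6 cases on the opposite strand, and the highest level of such an overlapping gene in any library was 3.00 CPM, reached by Gm16897 at Cd34. The strand setting of the counting is not given in the sources used here. Ly6a lies in a cluster of similar genes, so its level is uncertain where reads were shared among copies.

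CF libraries held 104139670 to 119232309 estimated counts, in which a read pair stands for up to 6, and hearts held 23497027 to 23857313 counts. Levels are CPM, counts scaled to the library total, fold changes are from edgeR with its own scaling, and a gene is said to pass at an adjusted p of at most 0.05. The fold asked for in addition was 2 in untreated cells, hearts, stimuli and tissue, and 1.5 between siRNAs under IL-17 and TGF-β. IAMP was at 24.4 CPM in untreated Scrambled CFs, 2.91 in the siR-1 and 1.81 in the siR-2 cells, and in the other tables it was 1.71 to 4.41 CPM with an siRNA against 19.5 and 21.1 without. In hearts it was at 17.1 CPM in HET and 15.96 in IAMP-KO, and a frameshift need not change RNA. Of the 10 cardiomyocyte markers, 5 to 8 were at or under the floor of 18 estimated counts (3 read pairs) in every group of CFs, and their sum was 94.6 to 103 CPM in untreated Scrambled CFs against 58742 to 62914 in HET hearts. That sum in CFs was nearly all Tnnt2, at 97.2 CPM in untreated Scrambled cells. Markers of endothelial cells summed to 117 to 132 CPM in untreated Scrambled CFs against 1042 to 1215 in HET hearts, those of mural cells to 138 to 148 against 2554 to 2882, of macrophages and leukocytes to 63.2 to 68.5 against 194 to 221, of Schwann cells to 10.4 to 10.5 against 10.1 to 17.8, and of mesothelial cells to 148 to 162 against 8.31 to 18.04.

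**Figure D1:**
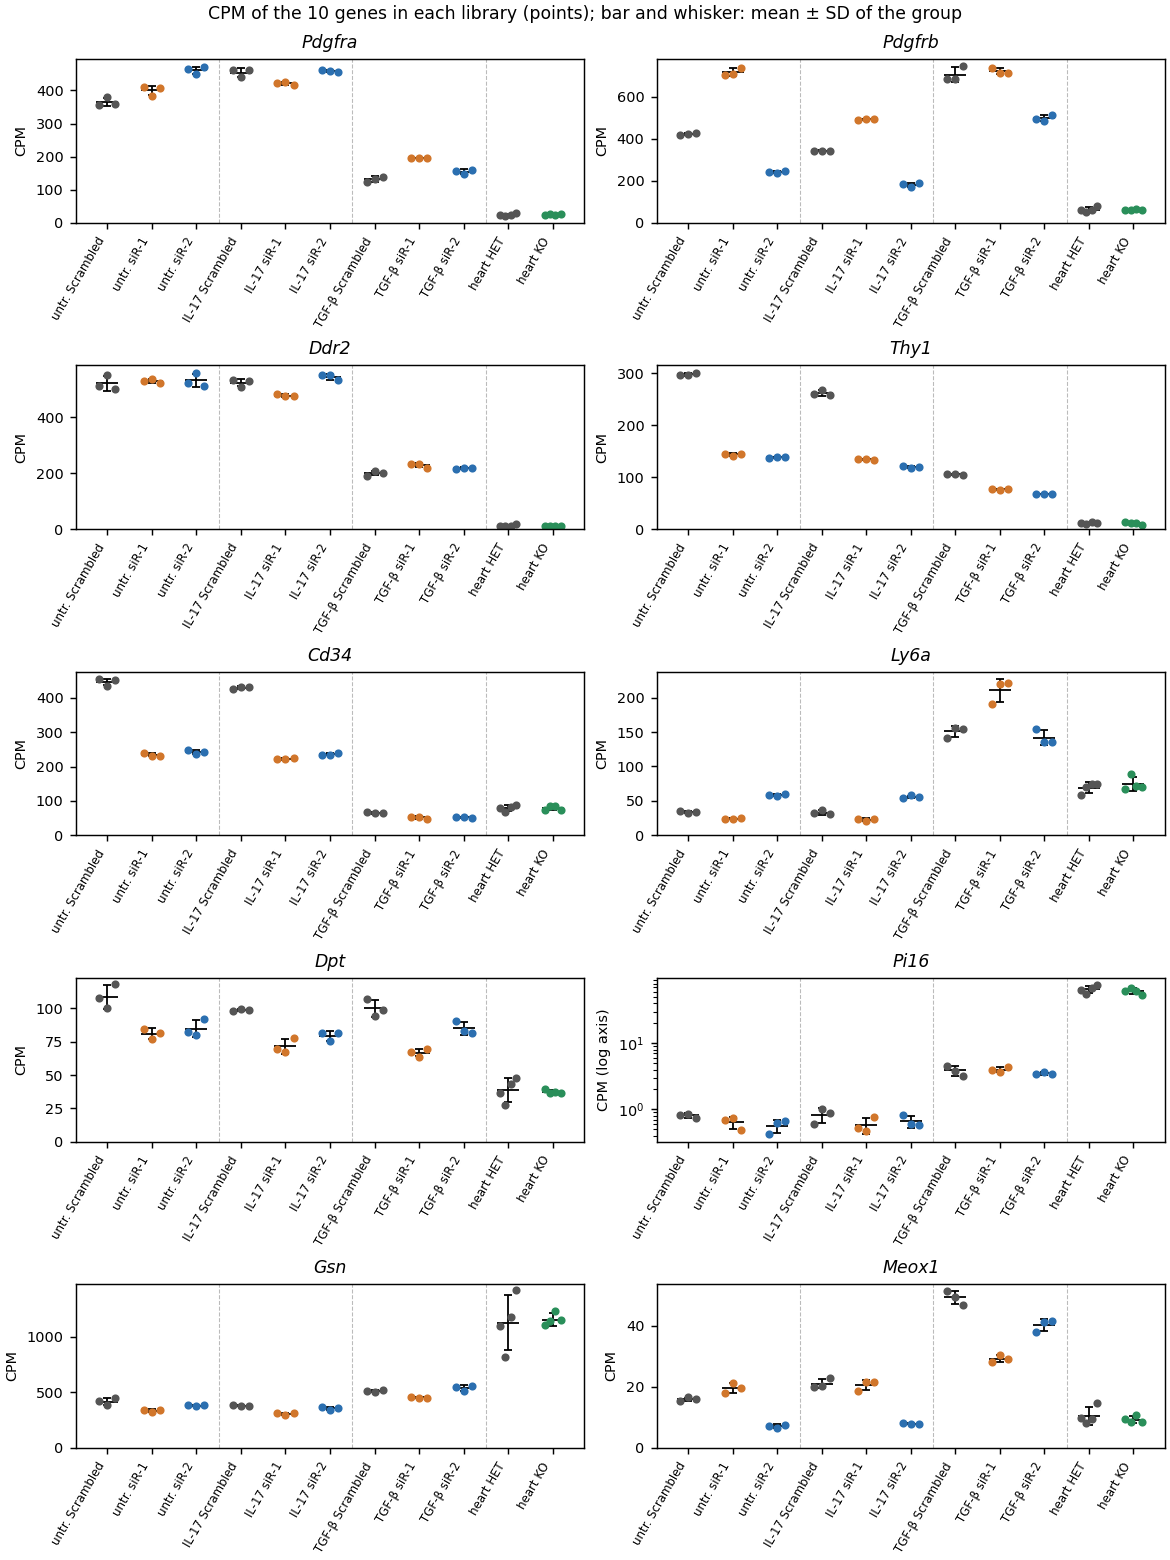
Level of each of the 10 genes in CPM (y axis, from 0 except for the log axis of Pi16) in the 11 groups (x axis). Points are libraries, colored by siRNA or genotype, and the bar with whiskers is the mean ± SD. Thy1 and Cd34 sit lower with both siRNAs than with Scrambled in all 3 CF tables, and Pi16 sits near 0.81 CPM in untreated Scrambled CFs and near 65.4 CPM in HET hearts.

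In untreated Scrambled CFs, 9 of the 10 identity genes were well expressed and Pi16 was close to the floor. Per kb of exon, the scale on which genes can be set side by side, the order of mean levels was Gsn (132 CPM per kb), Thy1 (99.4), Pdgfrb (77.4), Dpt (63.1), Cd34 (61.2), Ddr2 (56.1), Pdgfra (36.4), Ly6a (28.3), Meox1 (7.17) and Pi16 (0.128). Dpt and Cd34 overlapped between libraries in this order, and no other neighbours did. Pi16 rested on 88 to 99 estimated counts a library, so its differences within the untreated and IL-17 tables are known only roughly. Other genes of resident fibroblasts were high in the same cells, Col3a1 at 3045 CPM and the cardiac fibroblast transcription factor Tcf21 at 194 CPM.

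Without a stimulus, both siRNAs lowered Cd34, Thy1 and Dpt, and they moved Pdgfrb, Ly6a and Meox1 in opposite directions. Cd34 was at 453, 435 and 450.0 CPM in the 3 Scrambled libraries, against 239, 232 and 232 in the siR-1 and 249, 237 and 241 in the siR-2 libraries. All 6 knockdown libraries lay far below the lowest control, and the log2 fold change was -0.83 ± 0.0299, adjusted p = 1.84e-12 with siR-1 and -0.81 ± 0.0298, adjusted p = 7.62e-13 with siR-2 (edgeR, estimate ± SE throughout). Thy1 was at 297, 296 and 301 CPM in Scrambled, against 145, 141 and 145 in the siR-1 and 136, 139 and 138 in the siR-2 libraries. The groups did not overlap, at -0.95 ± 0.029, adjusted p = 3.03e-13 and -1.04 ± 0.029, adjusted p = 3.10e-14, so that Thy1 stood at 0.517 and 0.485 of its control level. Dpt was at 108, 100.4 and 118 CPM in Scrambled, against 84.6, 76.8 and 81.8 in the siR-1 and 82.4, 80.04 and 91.8 in the siR-2 libraries. Its fall was smaller, -0.33 ± 0.064 and -0.29 ± 0.064, with every knockdown library under the controls. For Cd34 and Dpt, siR-2 and siR-1 differed by 0.018 ± 0.0297 and 0.031 ± 0.064, which did not pass.

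Pdgfrb was at 419, 423 and 430.2 CPM in Scrambled, against 705, 711 and 738 in the siR-1 and 240.1, 239.8 and 247 in the siR-2 libraries. It rose 1.82-fold with siR-1 (log2 0.86 ± 0.029, adjusted p = 8.93e-13) and fell with siR-2 (log2 -0.74 ± 0.029, adjusted p = 1.84e-12). Ly6a was at 35.7, 32.4 and 34.1 CPM in Scrambled, against 23.4, 23.4 and 24.7 in the siR-1 and 58.7, 56.8 and 60.1 in the siR-2 libraries, so the controls stood between the knockdowns, with log2 differences of -0.41 ± 0.051, adjusted p = 4.36e-06 and 0.85 ± 0.0501, adjusted p = 3.21e-10. Meox1 was at 15.5, 16.5 and 15.96 CPM in Scrambled, against 17.9, 21.4 and 19.5 in the siR-1 and 7.26, 6.48 and 7.63 in the siR-2 libraries. It rose with siR-1 by 0.39 ± 0.077, adjusted p = 5.26e-04 and fell with siR-2 by 1.10 on the log2 scale (SE 0.079, adjusted p = 4.07e-09). Tested directly, siR-2 against siR-1 gave log2 -1.600 ± 0.0297 for Pdgfrb, 1.26 ± 0.051 for Ly6a and -1.49 ± 0.0798 for Meox1, all passing with more than a 2-fold difference. The smaller differences of Gsn (0.15) and Thy1 (-0.092) also passed, but Gsn no longer did without siR-1 replicate 2 (adjusted p = 0.0693) or siR-2 replicate 3 (0.0531), and Thy1 no longer did without siR-1 replicate 1 (0.0604), siR-1 replicate 3 (0.0679) or siR-2 replicate 1 (0.0661). These siRNAs lower the same transcript.

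The remaining identity genes moved less. Pdgfra was at 357, 379 and 359 CPM in Scrambled, against 409, 384 and 408 in the siR-1 and 465, 449 and 469.8 in the siR-2 libraries. It rose with both, by 0.23 ± 0.033 and 0.40 ± 0.033, and more with siR-2 (difference 0.17 ± 0.033). Gsn fell with siR-1 by 0.21 on the log2 scale and was -0.063 ± 0.045 with siR-2, which did not pass, but did without Scrambled replicate 2 (log2 -0.12, adjusted p = 0.00768). Ddr2 was at 510.2, 551 and 499 CPM in Scrambled, against 529, 537 and 521 in the siR-1 and 522, 557 and 512 in the siR-2 libraries, and these groups overlapped. Its siR-1 difference of 0.13 ± 0.039 passed (adjusted p = 0.0168) and no longer did without Scrambled replicate 1 (adjusted p = 0.0705), Scrambled replicate 3 (0.0838) or siR-1 replicate 2 (0.0602), while its siR-2 difference of 0.096 ± 0.039 missed the threshold (adjusted p = 0.0531) and passed without Scrambled replicate 2 (0.00874) or siR-2 replicate 3 (0.0281). With all libraries the siR-2 difference of Ddr2 also passed with RLE size factors (adjusted p = 0.0488), without a filter on low counts (0.0369) and with the values divided by 6 (0.0327), so it lies at the threshold. On plain library totals the Ddr2 means were 520 CPM in Scrambled, 529 in siR-1 and 530 in siR-2. The larger part of both Ddr2 differences thus came with the edgeR scaling. Pi16 was at 0.834, 0.863 and 0.738 CPM in Scrambled, against 0.691, 0.727 and 0.481 in the siR-1 and 0.428, 0.612 and 0.661 in the siR-2 libraries, with differences of -0.26 ± 0.28 and -0.45 ± 0.28 that were not detectable at this depth.

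With siR-1, 9 of the 10 identity genes passed, 4 higher and 5 lower, against 39.9% of all 19669 genes tested, and none passed with a 2-fold change, against 4.76% (DESeq2 also gave 0 with the fold, and 9 had an unadjusted p under 0.05). With siR-2, 7 passed, 2 higher and 5 lower, against 49.3%, and 2 passed with a 2-fold change (Meox1 and Thy1), against 10.7%. Between the siRNAs 6 differed, against 45.5%. The median log2 fold change of the 10 was -0.24 for siR-1 and -0.37 for siR-2, beside -0.016 and -0.020 over all genes. Of the 18 other genes of resident fibroblasts, 8 rose and 6 fell with siR-1 and 5 rose and 9 fell with siR-2 (median 0.20 and -0.15). Pdpn, a surface glycoprotein of fibroblasts, and the collagen gene Col3a1 rose with both, at log2 1.27 and 0.97 for siR-1 and 1.54 and 1.45 with siR-2. Htra3, a secreted protease, fell with both, at -1.08 and -1.499. Of 12 further genes of Pi16+ adventitial fibroblasts, 6 rose and 4 fell with siR-1 and 10 rose and none fell with siR-2 (median 0.22 and 1.04), among them with siR-2 Gfpt2 (2.37) and Cd55 (2.102). Of 12 genes of activated fibroblasts, 7 rose and 1 fell with siR-1, and 1 rose and 8 fell with siR-2 (median 0.23 and -0.69). Lox, which crosslinks collagen, rose with both (1.101 and 0.49), and the fibronectin gene Fn1 rose with siR-1 (0.48) and fell with siR-2 (-1.31). Of the 4 ligand genes of the PDGF receptors, Pdgfc rose with siR-1 (0.43), and with siR-2 3 fell, Pdgfa and Pdgfd among them (-0.55 and -0.37).

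Markers of other cells moved beside the fall of Cd34, which endothelial cells also make, and beside Pdgfrb, which mural cells also make. The endothelial sum was 117 to 132 CPM in Scrambled, 95.3 to 103 in siR-1 and 93.1 to 95.7 in siR-2 libraries, with 3 and 4 of 10 markers lower and 1 and 2 higher. The mural sum was 138 to 148, 75.2 to 81.3 and 61.6 to 70.997 CPM, lower also with siR-1, with which Pdgfrb rose (siR-1 lowered 3 and raised 1 of 8, siR-2 lowered 4). The mesothelial sum was 148 to 162, 128 to 135 and 87.5 to 92.7 CPM (siR-1 lowered 1 of 6, siR-2 lowered 4 and raised 1). Of the 4 cardiomyocyte markers tested 1 and 3 were lower and none higher, and the sum of all 10 was 94.6 to 103, 40.6 to 45.6 and 26.8 to 32.4 CPM. Myh6 and Myl3 were at 0 in the Scrambled libraries, Myl2 in the siR-1 libraries, and Mb, Myh6, Myl2, Myl3 and Pln in the siR-2 libraries. In the same order 5, 7 and 8 of the 10 were at or under the floor, so these zeros do not show a change with the siRNAs. The leukocyte sum was 63.2 to 68.5, 59.2 to 62.6 and 77.3 to 79.02 CPM (siR-1 raised 1 and lowered 2 of 10, siR-2 raised 3 and lowered 3), and the Schwann sum was 10.4 to 10.5, 9.65 to 10.7 and 14.6 to 16.2 CPM (none passed of 6 with siR-1, 1 was higher with siR-2). Their part in these results was not tested. In these bulk libraries fewer cells of a type and less RNA per cell cannot be told apart.

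**Figure D2:**
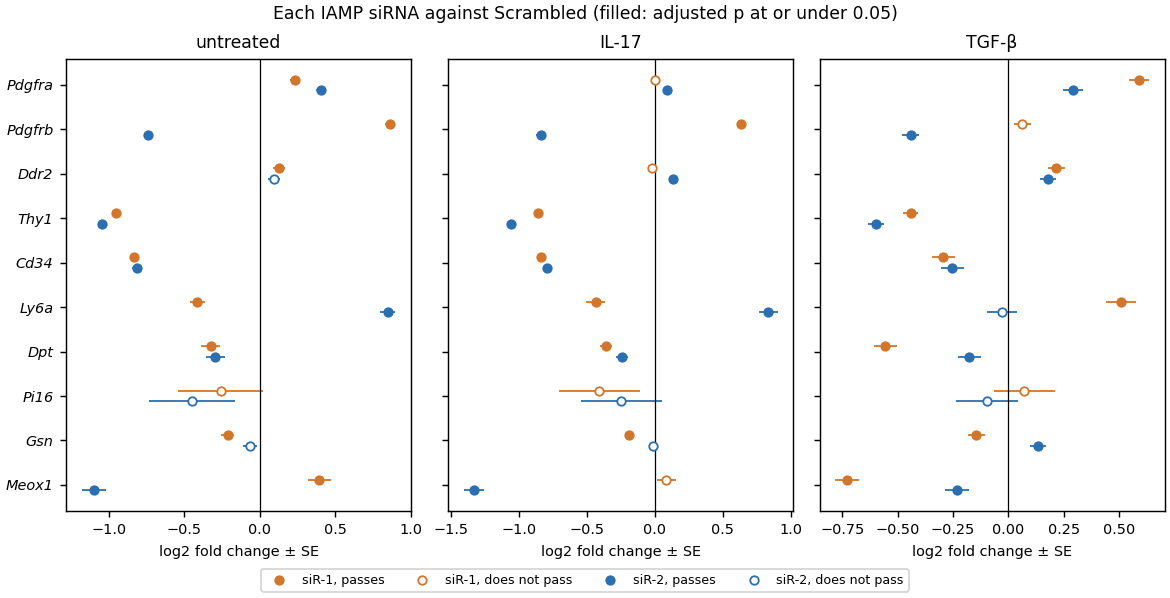
Log2 fold change ± SE (x axis) of each gene (y axis) for siR-1 (orange) and siR-2 (blue) against Scrambled in the untreated, IL-17 and TGF-β tables, with filled points at an adjusted p of at most 0.05. Cd34 and Thy1 lie left of 0 with both siRNAs in every panel, and Pdgfrb, Ly6a and Meox1 lie on opposite sides with siR-1 and siR-2 in untreated cells.

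Under IL-17 Cd34, Thy1 and Dpt again fell with both siRNAs, and Pdgfrb and Ly6a again moved in opposite directions. Cd34 was at 424, 431 and 431 CPM in Scrambled, against 221, 222 and 226 in the siR-1 and 235, 233 and 238 in the siR-2 libraries, a log2 fold change of -0.83 ± 0.025 and -0.79 ± 0.025. Thy1 was at 261, 268 and 257 CPM in Scrambled, against 135, 135 and 132 in the siR-1 and 122, 118 and 119 in the siR-2 libraries. It fell with both (-0.86 ± 0.029 and -1.06 ± 0.029), as did Dpt (-0.36 ± 0.045 and -0.24 ± 0.044). Pdgfrb was at 344, 344 and 340.2 CPM in Scrambled, against 489, 496 and 493 in the siR-1 and 183, 172 and 191 in the siR-2 libraries, again higher with the first (0.63 ± 0.032) and lower with the second (-0.84 ± 0.032). Ly6a fell with siR-1 (-0.43 ± 0.071) and rose with siR-2 (0.83 ± 0.0699). Meox1 was at 19.8, 20.4 and 22.7 CPM in Scrambled, against 18.7, 21.5 and 21.7 in the siR-1 and 8.11, 7.83 and 7.86 in the siR-2 libraries, so that siR-2 alone stood apart (-1.33 ± 0.073, against 0.085 ± 0.0704 with siR-1, which did not pass).

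With siR-1 under IL-17, 6 identity genes passed, 1 higher and 5 lower, against 42.3% of 19906 genes, and 3 passed with a 1.5-fold change (Cd34, Thy1 and Pdgfrb), against 13.5%. With siR-2, 8 passed, 3 higher and 5 lower, against 50.6%, and 5 passed with the fold (Cd34, Thy1, Pdgfrb, Meox1 and Ly6a), against 21.7%. Between the siRNAs 8 differed, against 46.2%, and Pdgfrb (-1.47 ± 0.033), Meox1 (-1.41 ± 0.073) and Ly6a (1.27 ± 0.071) did so by far the most, while Dpt (0.12) passed with overlapping groups and no longer did without siR-1 replicate 1 (adjusted p = 0.137) or 2 (0.227) or siR-2 replicate 1 (0.133) or 3 (0.167). Pdgfra (0.087) no longer passed without siR-1 replicate 3 (adjusted p = 0.0797) or siR-2 replicate 2 (0.0514), so that 7 in place of 8 passed whichever of the 6 libraries was left out, and Cd34 (0.043) passed with DESeq2 (0.0150). The siR-2 rise of Pdgfra by 0.089 also passed with overlapping groups, and it was lost without Scrambled replicate 2 (log2 0.068, adjusted p = 0.0598). On plain library totals its means were 454 CPM in Scrambled and 459 in siR-2, so the larger part of this rise came with the edgeR scaling. The same holds for Ddr2, which rose with siR-2 by 0.13 at means of 523 CPM in Scrambled and 544 in siR-2. With siR-1 Ddr2 was at 477 CPM, and its edgeR value of -0.024 did not pass. The siRNA effect itself differed between the IL-17 and the untreated table for Pdgfra and Pdgfrb with siR-1 (-0.23 ± 0.043, adjusted p = 0.00233, and -0.23 ± 0.043, adjusted p = 0.00232), which is 2 of 10 against 2.13% of 21219 genes, and for Pdgfra with siR-2 (-0.31 ± 0.043, adjusted p = 4.97e-05), which is 1 of 10 against 1.89%. For Ddr2 the difference with siR-1 passed without untreated Scrambled replicate 2 (adjusted p = 0.0321). Pdgfra rose in untreated cells and with the edgeR scaling was close to its control under IL-17 (0.0023 with siR-1, which did not pass). In CPM it was at 460.2, 439.9 and 462 in Scrambled under IL-17, against 422, 426 and 417 with siR-1. Every siR-1 library was thus below the controls on plain library totals. Of the 18 other resident genes 10 rose and 7 fell with siR-1 under IL-17, and 7 rose and 11 fell with siR-2. Of the 12 Pi16+ genes 7 rose and 4 fell, and 10 rose and 0 fell, and of the 12 activated genes 7 rose and 1 fell, and 1 rose and 10 fell. None of the differences of effects reached 2-fold (DESeq2 gave 2 and 1 passing and 0 with the fold, and 5 and 3 had an unadjusted p under 0.05).

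Markers of other cells moved in these libraries too, and sums are given in the order Scrambled, siR-1 and siR-2. The mural sum was 185 to 189, 108 to 112 and 81.04 to 89.4 CPM, where siR-1 lowered 4 of 8 markers and siR-2 lowered 4 and raised 1. The endothelial sum was 129 to 136, 96.2 to 104 and 96.1 to 101 CPM, with 4 and 3 of 10 lower and 1 and 2 higher. The mesothelial sum was 114 to 119, 104 to 106 and 67.8 to 70.3 CPM, where siR-1 lowered 1 and raised 1 of 6 and siR-2 lowered 4 and raised 1. Of the 4 cardiomyocyte markers tested, siR-1 lowered 1 and raised 1 and siR-2 lowered 1, and the sum was 72.4 to 79.9, 31.1 to 33.7 and 22.7 to 24.997 CPM. Leukocyte markers summed to 63.999 to 65.4, 65.4 to 71.5 and 78.4 to 85.9 CPM and Schwann markers to 9.26 to 11.1, 7.61 to 9.05 and 14.3 to 16.3 CPM. Their part in the fall of Cd34, Thy1 and Dpt and in the differences of Pdgfrb was not tested.

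Under TGF-β Thy1, Cd34, Dpt and Meox1 fell with both siRNAs and Pdgfra and Ddr2 rose with both. Cd34, already low, was at 68.5, 63.6 and 63.99 CPM in Scrambled, against 54.5, 54.1 and 48.4 in the siR-1 and 53.4, 53.1 and 51.3 in the siR-2 libraries, and fell by less than in untreated cells (-0.29 ± 0.052 and -0.25 ± 0.052). The log2 effect on Cd34 in the TGF-β table minus that in the untreated table was 0.53 ± 0.057, adjusted p = 2.03e-07 for siR-1 and 0.54 ± 0.057, adjusted p = 6.08e-08 for siR-2. Thy1 was at 106, 107 and 105 CPM in Scrambled, against 77.3, 74.6 and 77.3 in the siR-1 and 67.3, 66.9 and 66.8 in the siR-2 libraries. It still fell without overlap (-0.44 ± 0.035 and -0.60 ± 0.035), and by 0.50 ± 0.043 and 0.43 ± 0.043 less than in untreated cells. IAMP itself was left at 4.41 and 3.24 CPM with siR-1 and siR-2 here, against 2.91 and 1.81 in untreated cells. The part of this weaker knockdown in the differences of effects between the TGF-β and untreated tables was not tested.

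Meox1 was at 51.2, 49.5 and 46.9 CPM in Scrambled, against 28.1, 30.3 and 29.1 in the siR-1 and 37.9, 41.1 and 41.6 in the siR-2 libraries. It fell with both siRNAs here (-0.73 ± 0.054 and -0.23 ± 0.053), whereas in untreated cells it had risen with siR-1, a difference of effects of -1.13 ± 0.089, adjusted p = 1.76e-09. With siR-2 its fall was smaller than in untreated cells (0.85 ± 0.0902). Ly6a was at 142, 156 and 155 CPM in Scrambled, against 191, 219 and 221 in the siR-1 and 155, 136 and 135 in the siR-2 libraries. It now rose with siR-1 (0.51 ± 0.067) and was -0.028 ± 0.067 with siR-2, which did not pass, and its siRNA effects differed from those of untreated cells by 0.92 ± 0.083 and -0.89 ± 0.082. Pdgfrb was at 687, 683 and 746 CPM in Scrambled, against 739.9, 714 and 716 in the siR-1 and 495, 487 and 514 in the siR-2 libraries. The siR-1 groups overlapped the controls (0.063 ± 0.039, adjusted p = 0.299, which passed at 0.0423 without Scrambled replicate 3), and siR-2 lowered it (-0.44 ± 0.039). Pdgfra was at 124, 132 and 140.0 CPM in Scrambled, against 195, 195 and 195 in the siR-1 and 158, 147 and 159.9 in the siR-2 libraries, higher with both (0.59 ± 0.045 and 0.29 ± 0.045).

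Dpt fell with siR-1 (-0.56 ± 0.052) more than with siR-2 (-0.18 ± 0.052), and the second of these calls was lost without Scrambled replicate 1 (adjusted p = 0.104), siR-2 replicate 2 (0.0640) or siR-2 replicate 3 (0.0698). Gsn fell with siR-1 (-0.14 ± 0.037) and was higher with siR-2 (0.13 ± 0.037) with overlapping groups, a call that was lost without siR-2 replicate 1 (0.0560) or replicate 3 (0.0652) and with only the compared groups fitted (0.0517). Ddr2 rose with both (0.22 ± 0.037 and 0.18 ± 0.037), and Pi16 was 0.0705 ± 0.14 and -0.097 ± 0.14, which did not pass. In all, 8 identity genes passed with siR-1, 3 higher and 5 lower, against 23.1% of 19891 genes, and 2 with a 1.5-fold change (Meox1 and Pdgfra), against 4.36%. With siR-2, 8 passed, 3 higher and 5 lower, against 29.9%, and Thy1 alone with the fold, against 7.51%. Between the siRNAs 7 differed, against 24%. The difference of siRNA effects between the TGF-β and the untreated table passed for 6 of the 10 genes with siR-1, against 19.6% of 21508 genes, and for 6 with siR-2, against 30.2%, of which Meox1 with siR-1 exceeded 2-fold. The smallest of these, Gsn with siR-2 (0.18), was lost without any 1 of 7 libraries, with adjusted p from 0.0537 without TGF-β Scrambled replicate 1 to 0.0780 without TGF-β Scrambled replicate 2, and with only the compared groups fitted (0.0891). The siR-1 difference of effects of Dpt (-0.24) did not pass but did without untreated Scrambled replicate 3 (0.0247) or TGF-β Scrambled replicate 2 (0.0379). That of Pdgfra with siR-2 (-0.13) did not pass but did without TGF-β Scrambled replicate 1 (0.0191), with at least 10 counts in every library (0.0479) and with the values divided by 6 (0.0485). Of the other resident genes 5 rose and 4 fell under siR-1, 7 rose and 5 fell under siR-2, of the Pi16+ genes 4 rose and 2 fell with each, and of the activated genes 2 rose and 6 fell and 1 rose and 6 fell. All 4 PDGF ligand genes fell with siR-1, and 3 fell with siR-2, Pdgfa at -0.47 and -0.71.

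Markers of other cells also moved with the siRNAs under TGF-β, with sums again in the order Scrambled, siR-1 and siR-2. The mural sum was 101 to 104, 74.5 to 77.1 and 71.6 to 74.99 CPM, with 3 of 8 markers lower with each siRNA and 1 higher with siR-2. The mesothelial sum was 42.7 to 48.9, 29.8 to 34.6 and 23.2 to 30.01 CPM, with 3 and 4 of 6 lower and none higher. The leukocyte sum was 168 to 176, 133 to 149 and 144 to 150.5 CPM, with 4 of 10 lower with each and 1 higher with siR-2. The endothelial sum was 137 to 139.7, 144 to 145 and 131 to 136 CPM, with 1 of 10 higher with siR-1 and, for siR-2, 2 lower beside 1 higher. Cardiomyocyte markers summed to 5.54 to 6.23, 4.13 to 5.13 and 3.395 to 3.92 CPM and Schwann markers to 8.902 to 9.48, 10.1 to 10.5 and 9.74 to 10.5 CPM. Their part in the changes of the identity genes was not tested.

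Setting the stimulated tables against the untreated table compares tables as well as stimuli, and a stimulus and a batch of its table cannot be told apart. Between the IL-17 and untreated tables the identity genes differed little. In Scrambled cells 5 of the 10 passed, 2 higher and 3 lower, against 13.6% of 21219 genes, and none reached 2-fold, against 1.39% (DESeq2 gave 5 and 0, and 7 had an unadjusted p under 0.05). Meox1 (0.39 ± 0.074) and Pdgfra (0.31 ± 0.0304) were higher, and Pdgfrb (-0.31 ± 0.0302), Thy1 (-0.19 ± 0.027) and Gsn (-0.14 ± 0.0398) were lower. The Gsn call was lost without untreated Scrambled replicate 1 (adjusted p = 0.0686) or replicate 3 (0.139) or IL-17 Scrambled replicate 2 (0.0549) and with only the compared groups fitted (0.109), and Dpt (0.0248) and Cd34 (0.0483) passed, lower, without untreated Scrambled replicate 2. With siR-1 4 passed, all lower, against 16.1%, and with siR-2 2 passed, both lower, against 13.7%. Pdgfrb fell in each of the 3 (-0.31 ± 0.0302, -0.54 ± 0.0302 and -0.40 ± 0.0304 with Scrambled, siR-1 and siR-2) and so did Thy1 (-0.19 ± 0.027, -0.091 ± 0.027 and -0.19 ± 0.028). Without untreated siR-1 replicate 1 or replicate 3, 2 in place of 4 genes passed with siR-1, since Thy1 and Gsn no longer did. The Thy1 call was also lost without IL-17 siR-1 replicate 3 (adjusted p = 0.134), and the Gsn call without IL-17 siR-1 replicate 1 (0.0527), 2 (0.158) or 3 (0.0892) or in 1 fit of all 27 CF libraries (0.0505), and both calls were lost without a filter on low counts (0.0730 and 0.0566). With siR-1 Pdgfra was 0.084 ± 0.0303, which did not pass, but did under 5 alternatives with adjusted p from 0.0210 to 0.0483. Dpt was -0.17 ± 0.061, which did not pass, but did with DESeq2 (0.0306), with only the compared groups fitted (0.0373) and without untreated siR-1 replicate 2 (0.0345) or IL-17 siR-1 replicate 3 (0.0144), and Cd34 passed with DESeq2 (0.0428).

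Beside the lower Pdgfrb and Thy1 of the IL-17 table, markers of other cells differed in Scrambled cells. The mural sum was 185 to 189 CPM against 138 to 148 in the untreated table, with 2 of 8 markers higher and none lower, and the mesothelial sum was 114 to 119 against 148 to 162 CPM, with 4 of 6 lower. The cardiomyocyte sum was 72.4 to 79.9 against 94.6 to 103 CPM, with 2 of 6 tested lower. Of the endothelial markers 1 was higher and 1 lower (129 to 136 against 117 to 132 CPM), and of the leukocyte markers 1 was higher (63.999 to 65.4 against 63.2 to 68.5 CPM). No Schwann marker passed. Their part in these differences was not tested.

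Among the 12 other Pi16+ genes 3 were higher in the IL-17 table and 2 lower in Scrambled cells, and Gfpt2 (1.06) and the chemokine receptor gene Ackr3 (1.51) were higher. Among the 18 other resident genes 3 were higher and 4 lower, among the 12 activated genes 1 was higher and 3 lower, and of the 4 ligands Pdgfb was higher (0.66) and Pdgfc lower (-0.43).

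Between the TGF-β and untreated tables most identity genes differed widely and in both directions. Cd34, Thy1, Pdgfra and Ddr2 were lower in the TGF-β table, and Pi16, Ly6a and Meox1 were higher. In Scrambled cells Cd34 went from 453, 435 and 450.0 to 68.5, 63.6 and 63.99 CPM, a log2 difference of -2.77 ± 0.042, adjusted p = 3.79e-24, or 6.81-fold lower. Thy1 went from 297, 296 and 301 to 106, 107 and 105 CPM (-1.49 ± 0.031). Pdgfra went from 357, 379 and 359 to 124, 132 and 140.0 CPM (-1.47 ± 0.043). Ddr2 went from 510.2, 551 and 499 to 191, 207 and 201 CPM (-1.38 ± 0.042), its low values lying far from the untreated ones. These 4 genes were lower with siR-1 and siR-2 too, at -2.24 and -2.23 for Cd34, -0.99 and -1.07 for Thy1, -1.12 and -1.597 for Pdgfra and -1.29 and -1.31 for Ddr2.

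Pi16 went from 0.834, 0.863 and 0.738 to 4.5998, 3.86 and 3.198 CPM in Scrambled cells, 4.79-fold higher (2.26 ± 0.19, adjusted p = 2.32e-10). Ly6a went from 35.7, 32.4 and 34.1 to 142, 156 and 155 CPM (2.15 ± 0.0604), and the difference was larger with siR-1 (3.06 ± 0.063) and smaller with siR-2 (1.25 ± 0.058). Meox1 went from 15.5, 16.5 and 15.96 to 51.2, 49.5 and 46.9 CPM (1.63 ± 0.064), and by 0.50 ± 0.063 with siR-1 and 2.47 ± 0.067 with siR-2. Pdgfrb was higher in the TGF-β table with Scrambled (0.74 ± 0.036) and siR-2 (1.02 ± 0.036), and with siR-1 it was -0.066 ± 0.035, which did not pass, but did without a filter on low counts (log2 -0.087, adjusted p = 0.0493). Gsn was slightly higher in all 3 (0.30, 0.36 and 0.47). Dpt was -0.12 ± 0.064 in Scrambled cells, which did not pass, but did without untreated Scrambled replicate 2 (adjusted p = 0.0239) or TGF-β Scrambled replicate 1 (0.0441), and it was lower with siR-1 (-0.35 ± 0.064).

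In Scrambled cells 9 of the 10 passed, 5 higher and 4 lower, against 57.3% of 21508 genes, and 7 differed at least 2-fold, 3 higher and 4 lower, against 21.5%. With siR-1 9 passed, against 57.3%, and with siR-2 9 passed, against 57.6%. The median size of the log2 difference was 1.48 over the 10 genes and 0.63 over all genes in Scrambled cells. Of the 12 activated genes 9 were higher and 2 lower in Scrambled cells, with Acta2, the smooth muscle actin gene of myofibroblasts, at 1.55 and Ltbp2, a matrix protein gene, at 4.82, while Postn was at -0.55. Of the 12 other Pi16+ genes 9 were higher and 2 lower, with Ackr3 (3.35) and Sema3c (1.61), and of the 18 other resident genes 8 were higher and 8 lower, with Serpinf1 (2.35) and Dcn (1.96) higher and Vim (-0.83) and Col15a1 (-1.84) lower. Of the 4 PDGF ligands 3 were higher, Pdgfa at 1.12 and Pdgfb at 2.47, beside the lower receptor gene Pdgfra and the higher Pdgfrb.

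Markers of other cells also differed between these tables. Of the endothelial markers 7 were higher and 2 lower, and their sum was 137 to 139.7 CPM against 117 to 132. Of the leukocyte markers 6 were higher and 2 lower (168 to 176 against 63.2 to 68.5 CPM), with the lysozyme gene Lyz2 higher (1.52). Of the mesothelial markers 5 were lower and Wt1 was higher (42.7 to 48.9 against 148 to 162 CPM), and of the mural markers 5 were higher and 2 lower (101 to 104 against 138 to 148 CPM). Of the 6 Schwann markers 2 were higher and 1 lower. The cardiomyocyte sum was 5.54 to 6.23 CPM against 94.6 to 103, with Tnnt2 at -4.299. Their part in the differences of the identity genes was not tested.

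**Figure D3:**
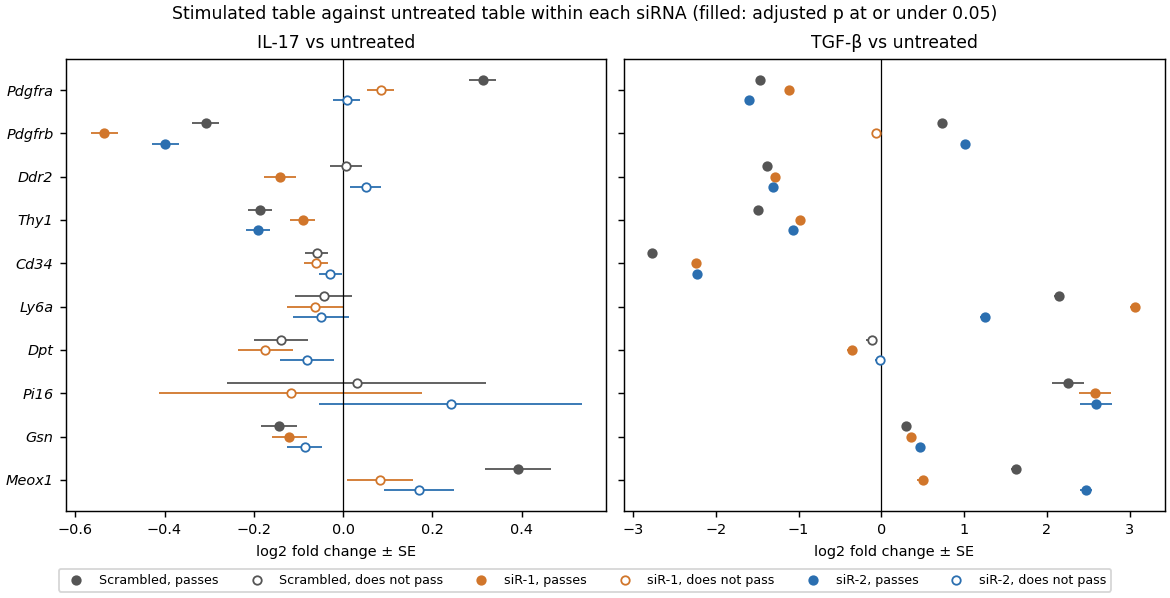
Log2 fold change ± SE (x axis, different ranges in the panels) of each gene (y axis) between the IL-17 or TGF-β table and the untreated table, within Scrambled (grey), siR-1 (orange) and siR-2 (blue), with filled points at an adjusted p of at most 0.05. In the IL-17 panel every point lies within 0.54 of 0, and in the TGF-β panel Cd34 lies between -2.77 and -2.23 and Pi16 between 2.26 and 2.59.

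Cultured CFs were compared with whole hearts, in which fibroblasts are a part of the cells. Culture, tissue makeup, table and counting scale differ together here and cannot be told apart. Ddr2, Thy1, Pdgfra, Pdgfrb and Cd34 stood higher in untreated Scrambled CFs than in HET hearts, and Pi16, Gsn and Ly6a stood lower. Ddr2 was at 10.97, 9.89, 11.9 and 17.6 CPM in the 4 HET hearts against 510.2, 551 and 499 in CFs, 27.9-fold higher in CFs (log2 4.804 ± 0.11, adjusted p = 8.46e-17). Thy1 was at 11.7, 9.89, 12.8 and 12.7 CPM in HET hearts (4.09 ± 0.099) and Pdgfra at 23.5, 19.4, 23.7 and 29.2 (3.36 ± 0.073). Pdgfrb was at 59.3, 52.6, 60.7 and 78.2 CPM (2.19 ± 0.068) and Cd34 at 79.5, 67.99, 82.8 and 89.2 (1.91 ± 0.057). Dpt was at 36.3, 27.1, 43.5 and 47.8 CPM in hearts, and its difference of 0.93 ± 0.11 passed and was below 2-fold.

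Pi16 was the gene with the widest difference, and the direction was the opposite one. It was at 63.3, 55.3, 67.6 and 75.5 CPM in HET hearts against 0.834, 0.863 and 0.738 in CFs, 119-fold lower in CFs (log2 -6.896 ± 0.15, adjusted p = 1.92e-17), and at 3.89 CPM in TGF-β Scrambled cells it was also far under the hearts. Gsn was at 1095, 817, 1174 and 1418 CPM in HET hearts (-1.997 ± 0.11), and Ly6a at 58.7, 69.8, 75.2 and 73.9 (-1.597 ± 0.094). In hearts, cardiomyocyte genes took 58742 to 62914 CPM and endothelial genes 1042 to 1215 CPM, and their cells' part in the levels of Gsn, Ly6a and Cd34 was not tested. Meox1, at 9.702, 8.204, 9.48 and 14.8 CPM in HET hearts, differed by 0.038 ± 0.12, which did not pass, but did without the HET heart at 14.8 CPM (log2 0.21, adjusted p = 0.0396) and with library totals as the only scaling (0.60), and it was -0.22 with DESeq2. The scaling moved all 10 genes together here, by a median of -0.26 with DESeq2 and 0.56 with library totals. In all, 9 of 10 genes passed, 6 higher and 3 lower, against 81.2% of 23708 genes, and 8 with a 2-fold change, against 64.8%, so the share of genes that differed was near that of all genes. Of the 18 other resident genes 13 were higher in CFs and 4 lower, with Pdpn (5.61) and Tcf21 (4.88) higher and Htra3 (-4.16) and Scara5 (-3.65) lower. Of the 12 other Pi16+ genes 6 were higher and 5 lower, with Ly6c1 lower (-5.79) and Ackr3 (-4.996), and of the 12 activated genes 9 were higher and 3 lower, with Fn1 at 7.14. Of the PDGF ligands 3 were higher and Pdgfb was lower (-4.29).

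**Figure D4:**
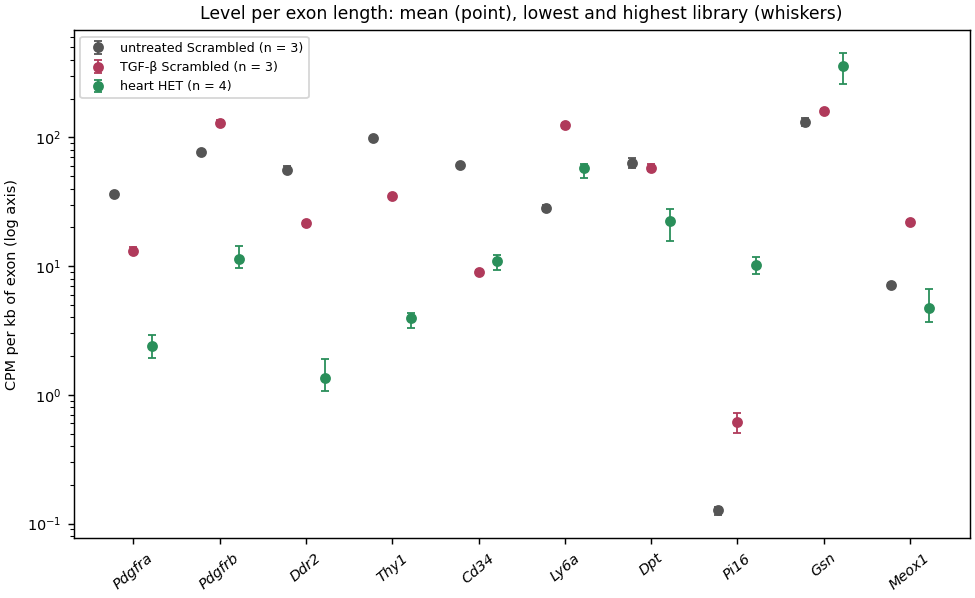
Level per kb of exon (y axis, log scale) of each gene (x axis) in untreated Scrambled CFs, TGF-β Scrambled CFs and HET hearts, as the mean (point) and the lowest and highest library (whiskers). Pi16 is at 0.13, 0.61 and 10.3 CPM per kb, and Gsn is the highest of the 10 genes in each of these groups.

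On the per-length scale the order of the identity genes in HET hearts was Gsn (357 CPM per kb), Ly6a (57.6), Dpt (22.4), Pdgfrb (11.4), Cd34 (10.96), Pi16 (10.3), Meox1 (4.73), Thy1 (3.93), Pdgfra (2.39) and Ddr2 (1.36). Pdgfrb, Cd34 and Pi16 overlapped between hearts, and so did Meox1 and Thy1. Ddr2, sixth in CFs, was last in hearts, and Pi16, last in CFs, was sixth in hearts.

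Loss of IAMP in vivo left no detectable difference in any of the 10 genes. In IAMP-KO hearts Pdgfra was at 23.5, 26.1, 24.3 and 25.4 CPM against 23.5, 19.4, 23.7 and 29.2 in HET, Cd34 at 73.03, 85.7, 85.4 and 73.4 against 79.5, 67.99, 82.8 and 89.2, and Thy1 at 14.5, 12.4, 11.7 and 8.89 against 11.7, 9.89, 12.8 and 12.7. The groups overlapped for each of these. Cd34 and Thy1, which both siRNAs lowered in CFs, differed by 0.0077 ± 0.068 and 0.032 ± 0.14 in hearts. Over the 10 genes the log2 fold change ran from -0.17 (Meox1) to 0.12 (Ly6a), with standard errors of 0.068 to 0.15. None passed, against 0% of 16675 genes (DESeq2 also gave 0 of the 10, and 0 had an unadjusted p under 0.05). The fibroblast lists had no passing member in hearts in either direction.

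The genes whose levels ran most alike were sought over the 27 CF libraries among the 13336 genes whose mean there reached 1 CPM, by Pearson's r of log2(CPM + 1), as a description. These libraries fall into 3 tables, so that a likeness rests largely on the difference between the tables. Nearest to Pdgfra were Akap12 (r = 0.989) and Atp8b1 (r = 0.983), to Ddr2 Ddx6 (r = 0.995) and Eif3a (r = 0.995), to Cd34 Lmnb1 (r = 0.994) and Tm4sf1 (r = 0.993) and to Thy1 Ccnd1 (r = 0.993) and Hmgn1 (r = 0.992). Nearest to Pdgfrb were Piezo2 (r = 0.976) and Grb10 (r = 0.975) and to Meox1 Gpx3 (r = 0.969) and Meg3 (r = 0.967). Ly6a ran with Acsl3 (r = 0.9896) and Mvd (r = 0.986), Gsn with Sf3b5 (r = 0.968) and Saraf (r = 0.967), Pi16 with Gm10925 (r = 0.989) and mt-Atp6 (r = 0.988) and Dpt, the least of them, with Mrps6 (r = 0.896) and Gnb2 (r = 0.886). Among the identity genes themselves, r was 0.98 for Pdgfra with Ddr2, 0.94 for Ddr2 with Cd34 and 0.91 for Thy1 with Cd34, and it was -0.97 for Ddr2 with Pi16. Dpt had r between -0.14 and 0.60 with the other 9.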

How the data were processed

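Total RNA was taken with Trizol, oligo(dT) beads selected the mRNA, and libraries were read on BGIseq or MGIseq instruments. Per the study's methods, reads were trimmed with Cutadapt, checked with FastQC, placed on GRCm38 by HISAT2 and assembled by StringTie. Which annotation release was used, and how whole numbers were made from StringTie's output, is not given in the sources used here. The authors deposited 4 tables that are not normalized, with 1 column per library. The 3 CF tables hold estimated counts deposited as whole numbers, in which the value most frequent among genes seen in 1 library only is 6, so values are read as derived from coverage and p values from them as approximate. The heart table was deposited as counts, in which that value is 1.

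From these values CPM was computed with plain library totals. Groups were taken from the labels. The siRNA codes in the column names were matched to siR-1 and siR-2 through the sample descriptions of the TGF-β libraries. Differential expression was tested with edgeR 4.0.16 in R 4.3.3 (TMM scaling, filterByExpr, robust quasi-likelihood F test), with Benjamini-Hochberg adjustment over all genes tested in each of 21 comparisons. The 3 groups of a table were fitted together, 2 tables were fitted together for stimuli and differences of effects, and untreated CFs with hearts for the tissue comparison. The standard error is |log2 fold change|/√F. The script was tested on simulated data. Lists of resident, Pi16+ and activated fibroblast genes, PDGF ligands and markers of cardiomyocytes, endothelial cells, leukocytes, mural, Schwann and mesothelial cells were counted. The 10 genes and these lists were chosen with earlier results of these data known. Named are the 10 genes, up to 4 genes a list (the 2 with the lowest adjusted p in each direction) and the 2 genes most alike to each of the 10. DESeq2 1.42.0, RLE size factors, other filters, values divided by 6, single comparisons, a replicate block and leaving out each library were the alternatives. Lengths are unions of GENCODE vM21 exons.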

Additional observations from a re-analysis of the deposited data

Results flagged for a closer look

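Among IAMP-KO hearts, Ly6a was at 67.5, 88.7, 71.03 and 70.5 CPM, and the highest library lay away from the others by 0.832 of the range of the group, above Dixon's critical value for 4 samples. Of 20 groups of hearts looked at, chance flags about 1 in 20. Hearts overlapped between genotypes for Ly6a.

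The difference of an siRNA's log2 effect between tables passed its own test (edgeR, adjusted p of at most 0.05) for these genes, and stimulus and table cannot be told apart in any of them. Under IL-17 minus untreated it was -0.229 for Pdgfra and -0.228 for Pdgfrb with siR-1, and -0.305 for Pdgfra with siR-2. Under TGF-β minus untreated with siR-1 it was 0.351 for Pdgfra, -0.803 for Pdgfrb, 0.504 for Thy1, 0.531 for Cd34, 0.915 for Ly6a and -1.13 for Meox1. With siR-2 it was 0.279 for Pdgfrb, 0.425 for Thy1, 0.54 for Cd34, -0.894 for Ly6a, 0.177 for Gsn and 0.847 for Meox1.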

How the results depend on the processing

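Over the 210 results of a gene in a comparison, 183 kept their side of the threshold under every alternative run and 27 did not. Of the 3089 values recomputed, 44 lost the threshold, 36 gained it and 78 changed sign, and none of the 78 passed either as reported or under the alternative. At a 1.5-fold in place of a 2-fold threshold, 3 genes passed with the fold for siR-1 and 5 for siR-2 in untreated cells, and 3 for the siR-1 effect and 2 for the siR-2 effect under TGF-β minus that in untreated cells. At 2-fold in place of 1.5-fold, 0 passed with siR-1 and 2 with siR-2 under IL-17, and 0 with siR-1 and 0 with siR-2 under TGF-β. For siR-1 between the IL-17 and untreated tables, DESeq2 gave 7 passing genes and no filter on low counts gave 2, and 2 to 5 passed with 1 library left out, 2 without untreated siR-1 replicate 1 or replicate 3. Under TGF-β 1 to 3 genes passed with the fold for siR-1 with 1 library left out, 1 without Scrambled replicate 1 or siR-1 replicate 1, and 0 to 1 for siR-2 against siR-1, 1 without siR-1 replicate 1 or siR-2 replicate 1.

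The log2 value of Pdgfra for siR-1 under IL-17 became -0.00931 with DESeq2, -0.00156 without a filter, -0.00249 with at least 10 counts in every library and -0.000982 with the values divided by 6. Pdgfra with siR-2 between the IL-17 and untreated tables became -0.000979 with DESeq2. The siR-1 effect on Cd34 under IL-17 minus that in untreated cells became 0.00349 without a filter, 0.00484 with at least 10 counts, 0.00459 with the values divided by 6 and 0.000583 in 1 fit of all 27 CF libraries. Meox1 in CFs against hearts became -0.2199 with DESeq2, -0.252 with RLE size factors, -0.2197 with at least 10 counts, -0.216 with the values divided by 6 and -0.0551 with the compared groups alone. With 1 library left out in turn, these log2 values changed sign. For siR-2 against siR-1 in untreated cells, Dpt ran from -0.0296 to 0.066. For siR-1 against Scrambled under IL-17, Pdgfra ran from -0.0198 to 0.015. For siR-2 against Scrambled under IL-17, Gsn ran from -0.034 to 0.0078. For siR-2 against siR-1 under IL-17, Pi16 ran from -0.016 to 0.39. For siR-1 against Scrambled under TGF-β, Pi16 ran from -0.049 to 0.21. For siR-2 against Scrambled under TGF-β, Pi16 ran from -0.22 to 0.042 and Ly6a ran from -0.098 to 0.0052. For siR-2 against siR-1 under TGF-β, Cd34 ran from -0.015 to 0.075. For IAMP-KO against HET hearts, Pdgfrb ran from -0.045 to 0.11, Thy1 ran from -0.093 to 0.14, Ddr2 ran from -0.202 to 0.056, Dpt ran from -0.15 to 0.061, Cd34 ran from -0.045 to 0.0398, Gsn ran from -0.053 to 0.16 and Meox1 ran from -0.25 to 0.0086. For the IL-17 against the untreated table with Scrambled, Ddr2 ran from -0.025 to 0.045, Pi16 ran from -0.13 to 0.21 and Ly6a ran from -0.13 to 0.00997. For the same tables with siR-1, Pi16 ran from -0.35 to 0.019 and Ly6a ran from -0.11 to 0.0025. For the same tables with siR-2, Pdgfra ran from -0.00697 to 0.021. For the siR-1 effect under IL-17 minus that in untreated cells, Dpt ran from -0.096 to 0.025, Pi16 ran from -0.38 to 0.0086, Cd34 ran from -0.021 to 0.0197, Ly6a ran from -0.073 to 0.067 and Gsn ran from -0.027 to 0.083. For the siR-2 effect under IL-17 minus that in untreated cells, Thy1 ran from -0.019 to 0.011, Dpt ran from -0.0023 to 0.12 and Ly6a ran from -0.059 to 0.081. For the TGF-β against the untreated table with siR-2, Dpt ran from -0.061 to 0.038. For CFs against hearts, Meox1 ran from -0.0497 to 0.21. The cause was not tested.

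With the replicate number as a block, 8 genes in place of 7 passed for siR-2 in untreated cells, 6 in place of 5 with Scrambled and 5 in place of 4 with siR-1 between the IL-17 and untreated tables, 10 in place of 9 with Scrambled between the TGF-β and untreated tables, and 7 in place of 6 for the siR-1 effect under TGF-β minus that in untreated cells. The gene gained was Ddr2 in the first of these (adjusted p = 0.0183 with the replicate block) and Dpt in the others (0.0268, 0.00346, 0.0408 and 0.0152, in the same order). In the other comparisons of CFs the block left the number of passing genes as it was. Deviations of same-numbered libraries correlated at -0.39 to 0.24. Each library was also compared with each other group of its table. The best correlated library there had the same number in 9 of 18 such comparisons in the untreated table. It did so in 7 of 18 in the IL-17 table and in 4 of 18 in the TGF-β table. These counts were not tested against chance. The labels do not say what a number marks, and some of the correlations were below 0. The libraries were therefore not treated as pairs. No paired analysis was possible because the heart columns carry no replicate number, which holds for hearts and for CFs against hearts. Depth limits Pi16 in CFs most, and stimulus and table cannot be told apart.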
